A study of Mus musculus with 10 samples.

Results

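The genes described here sense double-stranded RNA or belong to the interferon response that such sensing can start. They were fixed as a list of 30 symbols: 7 for sensing and handling of double-stranded RNA, 5 for transcription factors and 18 for genes induced by interferon. For 27 of the 30, a probe set annotated to that gene alone was on the array, and these 27 are the members counted below, of 19938 genes with such a probe set. Isg15 and Gbp2 each shared their probe set with a second gene (Gm9706 and Gbp2b), and Ifi44 matched no probe set by symbol and was not analysed here. Where a gene had more than 1 probe set, the one with the highest mean over the 10 arrays was used.

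The lenses came from E13.5 mouse embryos. DicerCN embryos had the genotype Le-Cre+/-;DicerloxP/loxP: both Dicer alleles carried loxP sites, and the Le-Cre transgene expressed Cre recombinase from the Pax6 P0 promoter in the surface ectoderm that gives rise to lens and corneal epithelium. Control embryos, titled wt, had the genotype Le-Cre-/-;DicerloxP/loxP and thus the same flanked alleles without Cre. Cells of the sample that do not descend from that ectoderm, such as vessel cells and macrophages, keep Dicer in both groups. Each group had 5 arrays, and each array held RNA from the 2 lenses of 1 embryo. A pair of arrays stood apart in markers of neural retina or striated muscle, scored as the mean of log2 signals centred on all 10 arrays. DicerCN replicate 5 had a neural retina score of 1.51, against at most 0.43 in the other DicerCN arrays, and control replicate 4 had a striated muscle score of 2.87, against at most -0.14 in the other control arrays. Without both arrays, as with them, 0 of the members counted below passed the test. Scores of further tissues also differed between arrays. DicerCN replicate 3 had a periocular mesenchyme score of 0.83, against at most 0.23 in the other DicerCN arrays, and control replicate 4 had 0.73. DicerCN replicate 4 had a pigment epithelium score of 1.22, against at most 0.73 in the other DicerCN arrays.

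Dicer cuts microRNA precursors and long double-stranded RNA into short duplexes. Long double-stranded RNA that persists in a vertebrate cell can be bound by the helicases RIG-I (Ddx58) and MDA5 (Ifih1), which act through the mitochondrial adaptor Mavs, by Tlr3 in endosomes, or by the kinase PKR (Eif2ak2), which halts translation. The first of these routes lead to type I interferon, whose receptor activates a complex that includes Stat2 and Irf9 and binds a short promoter element upstream of antiviral genes such as the Ifit, Mx and Oas families. The transcripts of these sensors and induced genes were compared between DicerCN and control lenses.

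No member passed the test. Of the 27 members, 0 were higher and 0 lower in DicerCN lenses at an adjusted p under 0.05 in limma, the linear model fitted to all genes. Over all genes 6.54% passed in both directions (2.56% higher and 3.97% lower), so that for 27 genes this count is near the background. At an unadjusted p under 0.05, 4 members were higher (Ddx58, Tlr3, Adar and Mx1) and 1 was lower (Mavs), against 8.36% and 10.2% of all genes. Every change given is a difference of mean log2 signals, DicerCN minus control, and those of the members ran from -0.20 in Mavs to 0.30 in Ifit2, with a median of 0.03 beside -0.001 over all genes. In bulk RNA of a whole lens, fewer cells of a type and less RNA per cell cannot be told apart.

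The intervals show how large a change could have been missed. The 95% interval of the change, taken gene by gene, had its upper limit under a 1.5-fold rise in 26 of 27 members and under a 2-fold rise in all 27. The exception at 1.5-fold was Ifit2, with an upper limit of 0.67. Over all genes the upper limit lay under a 1.5-fold rise in 92.6% and under a 2-fold rise in 98.3%. In control lenses 20 of the 27 members had a mean signal below the array median, and how far probe sets of low signal understate a fold change was not tested.

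Promoter stretches of 7 members are shown because they hold the letters that the interferon-activated complex is known to bind. In the RefSeq promoter windows of build GRCm38.p6, which run from 250 bases before to 50 bases after each transcript start, the interferon-stimulated response element was searched as GAAA, any 2 bases and again GAAA on both strands, overlaps between matches included. It was found in 13 of 25 listed genes that have a window (52.0%), against 1079 of 27025 genes with a window (3.99%). By role these were 3 of 6 sensing genes, 1 of 5 transcription factors and 9 of 14 induced genes. The windows below hold every match that ends before the start of a measured member, read 5′ to 3′ along the gene's own strand, with the matched letters in capitals.
Ifit1 (chr19:34640770-34640828, plus strand): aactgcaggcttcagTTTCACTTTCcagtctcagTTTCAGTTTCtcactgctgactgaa
Ifit3 (chr19:34583358-34583431, plus strand): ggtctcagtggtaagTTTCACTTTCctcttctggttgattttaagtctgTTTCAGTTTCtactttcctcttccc
Oas1a (chr5:120907526-120907560, minus strand): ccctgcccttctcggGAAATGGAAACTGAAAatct
Oas3 (chr5:120777710-120777749, minus strand): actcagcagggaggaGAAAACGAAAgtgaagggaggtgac
Rsad2 (chr12:26456548-26456587, minus strand): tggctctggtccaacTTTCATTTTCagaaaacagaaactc
Bst2 (chr8:71537572-71537617, minus strand): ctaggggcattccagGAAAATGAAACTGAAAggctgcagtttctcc
Stat2 (chr10:128270261-128270300, plus strand): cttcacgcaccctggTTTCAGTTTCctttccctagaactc

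Ifit1 and Ifit3 each hold a pair of separate matches, while in Oas1a and Bst2 a pair of matches overlaps. In Ddx58, Ifitm3, Eif2ak2 and Ifih1 the first match began 3, 3, 19 and 33 bases into the transcript. A match is a run of letters and not a shown binding site. Across the array, 607 genes had a match in their window, and of these 2.80% were higher and 3.46% lower in DicerCN lenses, with a median change of 0.003. Among 15007 genes whose window held no match the values were 2.66%, 4.28% and -0.003.

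In control lenses 7 of 27 members (25.9%) had a mean signal above the array median, which averaged 6.55 over the 5 control arrays, against 54.4% of all genes. These were the adaptor Mavs, the RNA-editing enzyme Adar, the transcription factors Irf3, Irf9 and Stat2, and the induced genes Oasl1 and Bst2. All 7 lay above the median of the array in each of the 5 control arrays. The 20 others, among them Ddx58, Ifih1, Tlr3 and every measured member of the Ifit and Mx families, had a mean below it. Probe sets differ in how strongly they bind, so their signals are set against the array and not against each other. By role, 2 of 7 sensing genes, 3 of 5 transcription factors and 2 of 15 induced genes were above it.

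**Figure D1:**
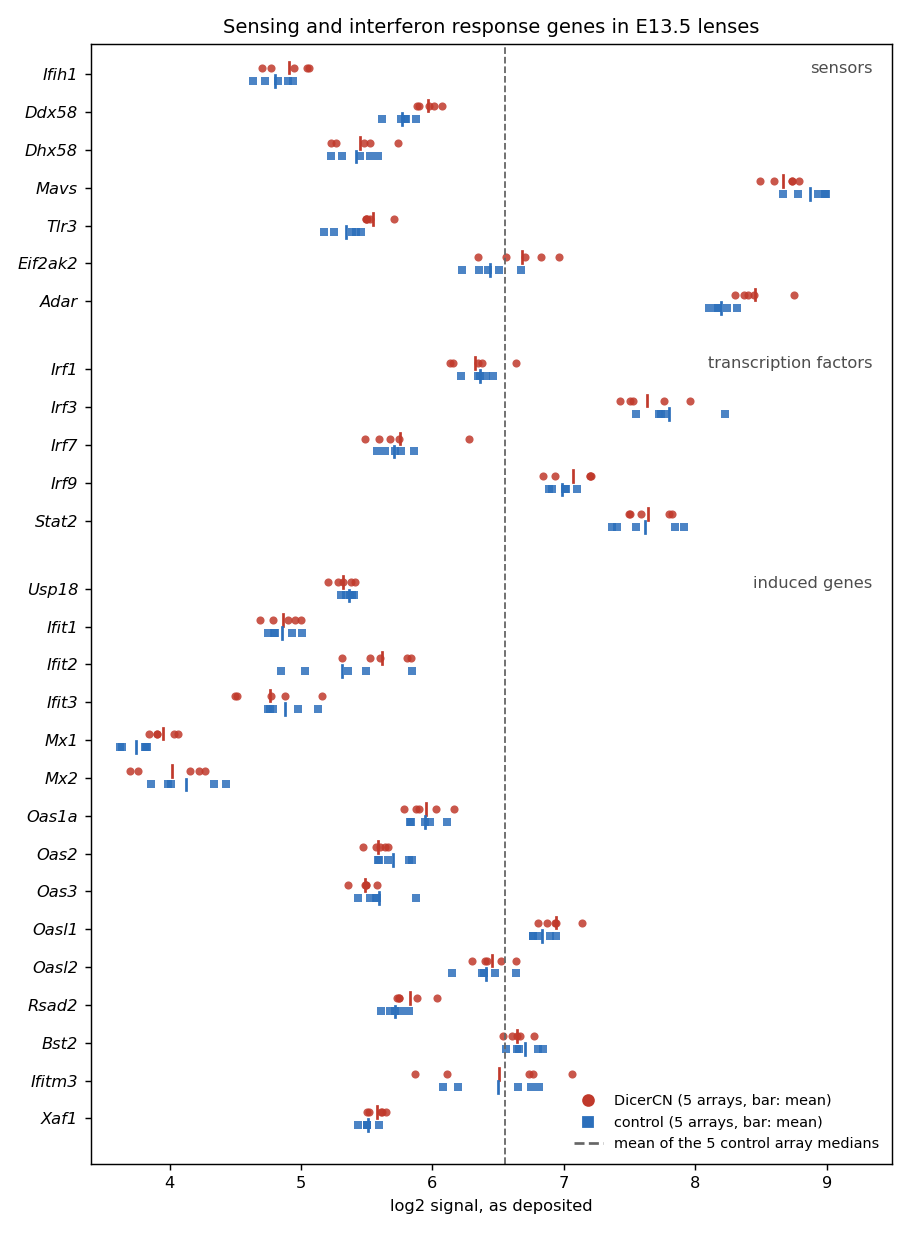
Log2 signal (x axis) of the 27 members in each array, DicerCN above control within each row, grouped by role, with a short bar at the mean of 5 arrays and a dashed line at the mean of the control array medians (6.55). Groups overlap in all rows except Ddx58, Tlr3 and Mx1, and 20 of 27 members have a control mean left of the line.

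Among the cytosolic helicases, Ddx58 (RIG-I, a sensor of RNA with a 5′ triphosphate) had log2 signals of 5.97, 5.89, 5.89, 6.01 and 6.08 in DicerCN replicates 1 to 5, against 5.62, 5.79, 5.80, 5.87 and 5.76 in control replicates 1 to 5. All DicerCN arrays were above all control arrays, by a narrow margin. The change was 0.20 (SE 0.07, 95% interval 0.04 to 0.36, limma adjusted p = 0.146). Ifih1 (MDA5, a sensor of long duplexes) had 5.05, 4.77, 4.95, 4.70 and 5.06 in DicerCN lenses, against 4.82, 4.63, 4.90, 4.94 and 4.72 in control lenses. Its groups overlapped, with a change of 0.10 (SE 0.09, adjusted p = 0.645). Dhx58 (LGP2, a helicase that modulates the other two) averaged 5.45 ± 0.21 in DicerCN and 5.42 ± 0.15 in control lenses (SD, n = 5 each), a change of 0.03 (SE 0.11).

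Mavs, the adaptor shared by Ddx58 and Ifih1, was the only sensing gene with a negative change. It had 8.79, 8.74, 8.73, 8.49 and 8.60 in DicerCN lenses, against 8.94, 8.78, 8.99, 8.67 and 8.995 in control lenses. The ranges overlapped, and the change was -0.20 (SE 0.09, 95% interval -0.40 to -0.01, limma adjusted p = 0.236).

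Tlr3, the receptor for double-stranded RNA in endosomes, had 5.71, 5.49, 5.50, 5.50 and 5.53 in DicerCN lenses, against 5.18, 5.42, 5.46, 5.39 and 5.25 in control lenses. The groups did not overlap, and DicerCN replicate 1 stood above the other 4. The change was 0.21 (SE 0.08, limma adjusted p = 0.171). Among all 27, 3 members, Ddx58, Tlr3 and Mx1, had DicerCN arrays all above control arrays (11.1%, against 2.96% of all genes), and 0 had them all below (against 4.42%, or 7.38% in both directions).

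The other pair of sensing genes encode enzymes that bind the duplex. Eif2ak2 (PKR, the kinase that phosphorylates the translation factor eIF2 alpha) had 6.71, 6.56, 6.35, 6.97 and 6.82 in DicerCN lenses, against 6.35, 6.23, 6.42, 6.67 and 6.51 in control lenses. Its groups overlapped, with a change of 0.24 (SE 0.12, 95% interval -0.01 to 0.50, limma adjusted p = 0.302). Adar, which deaminates adenosines in duplexes and so keeps a cell's own RNA from the sensors, had 8.40, 8.30, 8.45, 8.37 and 8.75 in DicerCN lenses, against 8.16, 8.17, 8.24, 8.11 and 8.32 in control lenses. DicerCN replicate 5 was the highest, and only DicerCN replicate 2 fell within the control range. The change was 0.26 (SE 0.09, 95% interval 0.06 to 0.45), the largest of the 7, and had the smallest adjusted p of all members (limma, 0.127).

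As a list, 6 of 7 sensing genes had a positive change, with a median of 0.20, against 9 of 15 induced genes with a median of 0.01. Over all genes, 9902 of 19938 changes were positive, with a median of -0.001. Among the genes of the route between sensor and nucleus, described further on, 17 of 26 changes were positive, with a median of 0.06. Averaged over the 7 genes after centring each on its mean of 10 arrays, the sensing genes ran from -0.004 to 0.16 in DicerCN arrays, against -0.14 to -0.003 in control arrays. The same average over the induced genes ran from -0.05 to 0.06 in DicerCN arrays, against -0.08 to 0.07 in control arrays. Neither the sensing genes nor the induced genes held a gene that passed the test.

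**Figure D2:**
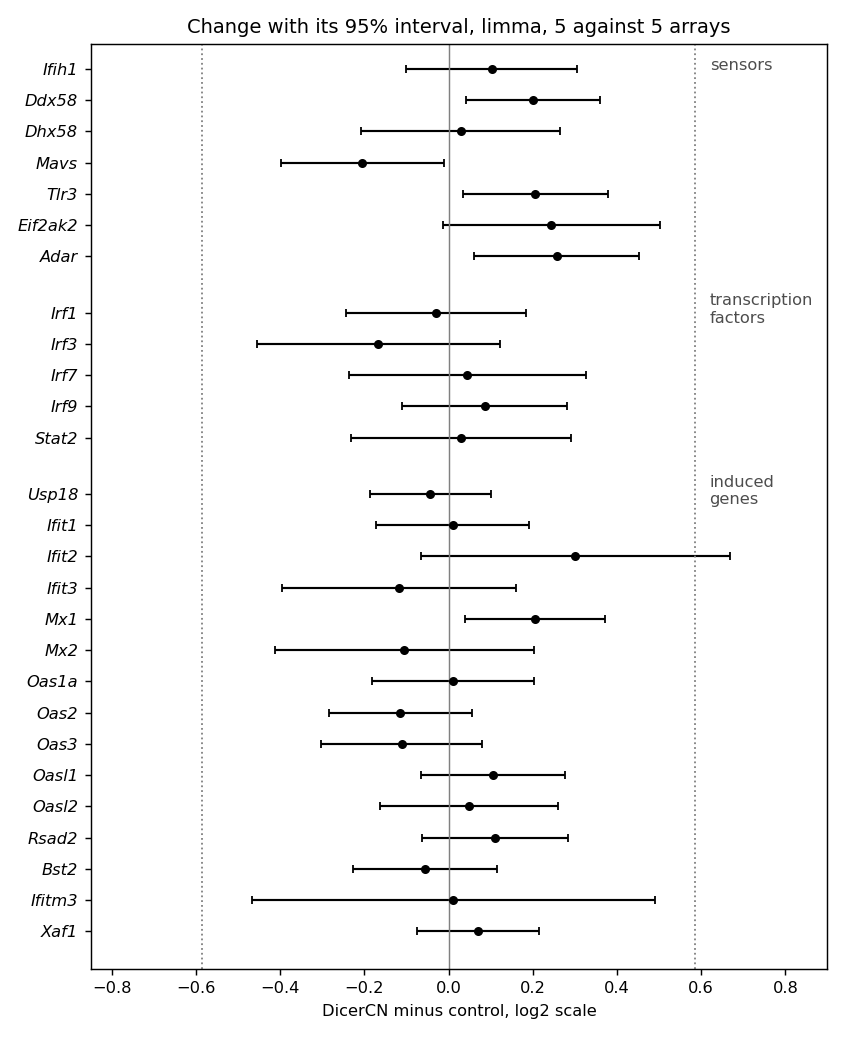
Change of each member (x axis, DicerCN minus control, log2 scale) with its 95% interval from limma, grouped by role. The dotted lines mark a 1.5-fold difference in either direction, and only the interval of Ifit2 crosses one of them.

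The transcription factors relay the signal at its start (Irf3 and Irf7, activated after sensing), at the interferon receptor (Stat2 and Irf9) and in a broader response (Irf1). Irf3 averaged 7.63 ± 0.22 in DicerCN and 7.80 ± 0.25 in control lenses, a change of -0.17 (SE 0.13, limma adjusted p = 0.579). Irf7, itself induced by interferon and a common early readout of it, had 5.59, 5.68, 6.28, 5.49 and 5.74 in DicerCN lenses, against 5.71, 5.58, 5.76, 5.86 and 5.64 in control lenses. DicerCN replicate 3 was the highest array and the groups overlapped, and the change was 0.04 (SE 0.13). Stat2, Irf9 and Irf1 changed by 0.03 (SE 0.12), 0.09 (SE 0.09) and -0.03 (SE 0.10), with adjusted p of 0.941, 0.703 and 0.921. The second probe set of Irf1 had a change of 0.11 (SE 0.10).

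Among the induced genes, the Ifit genes encode proteins that bind foreign RNA ends and are among the most strongly induced by type I interferon. Ifit1 had 4.69, 4.99962, 4.96, 4.79 and 4.90 in DicerCN lenses, against 4.79, 4.93, 4.74, 5.01 and 4.80 in control lenses. The groups overlapped over nearly their whole ranges, with a change of 0.01 (SE 0.08, 95% interval -0.17 to 0.19, limma adjusted p = 0.972). Ifit3 averaged 4.76 ± 0.28 in DicerCN and 4.88 ± 0.17 in control lenses, a change of -0.12 (SE 0.13). In the fit that held the macrophage score described further on, the change was -0.46 (limma adjusted p = 0.191), and without both arrays that stood apart it was 0.01. Its near-identical neighbour Ifit3b has a probe set of its own, and cross-binding between them was not tested.

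Ifit2 had the largest change of all members and a wide spread. It had 5.84, 5.60, 5.53, 5.81 and 5.31 in DicerCN lenses, against 5.36, 5.03, 4.85, 5.84 and 5.49 in control lenses. Control replicate 4 was as high as the highest DicerCN array, and the change of 0.30 (SE 0.17, limma adjusted p = 0.388) was 0.43 without that array (adjusted p = 0.114) and 0.12 with the macrophage score in the fit (adjusted p = 0.893). Over the 11 alternatives the change of Ifit2 reached 0.51, and its lowest limma adjusted p was 0.0613.

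The Mx genes encode GTPases that block viral replication, and common laboratory strains carry defective Mx1 alleles. Mx1 had 3.90, 3.84, 4.06, 3.90 and 4.03 in DicerCN lenses, against 3.82, 3.62, 3.83, 3.64 and 3.81 in control lenses. The groups did not overlap, at signals low among all genes (percentile 5.11 in control lenses), and the change was 0.20 (SE 0.08, limma adjusted p = 0.158). Mx2 changed by -0.10 (SE 0.14, adjusted p = 0.779), averaging 4.02 ± 0.27 in DicerCN and 4.12 ± 0.24 in control lenses.

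The Oas genes encode synthetases that make 2′-5′ oligoadenylate on contact with double-stranded RNA and thereby switch on RNase L. Oas2 had 5.47, 5.57, 5.60, 5.64 and 5.66 in DicerCN lenses, against 5.84, 5.59, 5.58, 5.82 and 5.66 in control lenses. Oas3 averaged 5.48 ± 0.08 in DicerCN and 5.59 ± 0.17 in control lenses. Both had a change of -0.11 (SE 0.08 and 0.09) with overlapping groups. Oas1a, whose second probe set is shared with Oas1g, changed by 0.01 (SE 0.09). Of the Oas-like genes, Oasl1, which restrains translation of Irf7 in mice, changed by 0.11 (SE 0.08) and Oasl2 by 0.05 (SE 0.10), with adjusted p of 0.544 and 0.862 in limma.

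Rsad2, which encodes the antiviral enzyme viperin, had 5.75, 6.03, 5.88, 5.73 and 5.75 in DicerCN lenses, against 5.82, 5.61, 5.68, 5.76 and 5.71 in control lenses, a change of 0.11 (SE 0.08). Usp18, the protease that removes ISG15 from proteins and dampens the interferon receptor, had the narrowest control values, 5.40, 5.37, 5.31, 5.34 and 5.39, beside 5.21, 5.38, 5.41, 5.28 and 5.32 in DicerCN lenses. Its change was -0.04 (SE 0.07, 95% interval -0.19 to 0.10, limma adjusted p = 0.815). Xaf1, a proapoptotic interferon target, changed by 0.07 (SE 0.07), and Bst2, the tether that holds budding virions at the cell surface, by -0.06 (SE 0.08). The probe set shared by Isg15 and Gm9706 averaged 5.73 ± 0.12 in DicerCN and 5.76 ± 0.08 in control lenses, and that shared by Gbp2 and Gbp2b averaged 4.69 ± 0.06 in DicerCN and 4.55 ± 0.10 in control lenses. With shared probe sets included, all genes refitted, 0 members passed the test.

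Ifitm3, a membrane protein that blocks viral entry, had the widest spread of the members. It had 6.76, 5.87, 7.06, 6.74 and 6.11 in DicerCN lenses, against 6.08, 6.65, 6.81, 6.75 and 6.20 in control lenses. In each group 3 arrays lay near or above 6.65 and 2 lay at or below 6.20, and the change was 0.01 (SE 0.22, 95% interval -0.47 to 0.49, limma adjusted p = 0.989). The 3 high arrays of each group were also the 3 with the highest macrophage marker score and the 3 with the highest endothelial marker score of that group. The part of these cells in the values was not tested beyond the covariate fit, in which Ifitm3 was lower in DicerCN lenses (-0.78, limma adjusted p = 0.0372, with the macrophage score in the fit).

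Macrophage markers moved with the groups. Of 19 measured markers, 5 were higher (26.3%) and 0 lower in DicerCN lenses, against 2.56% and 3.97% of all genes. The 5 were Csf1r (by 0.86), Cd53 (by 0.83), Ctss (by 0.73), Cx3cr1 (by 0.73) and Itgam (by 0.45). Among the 19 markers, 18 changes were positive. Their score, the mean of the centred log2 signals, ran from -0.09 to 0.66 in DicerCN arrays, against -0.61 to -0.004 in control arrays. With this score as a covariate the changes of Ddx58, Tlr3, Mx1 and Adar were 0.18, 0.10, 0.23 and 0.37, and none passed the test (limma adjusted p = 0.545, 0.782, 0.445 and 0.239). Over all genes that fit called 54 higher and 156 lower, against 511 and 792 without the score, whose values nearly separate the groups. Whether a call lost in that fit reflects macrophages or lost precision was not tested. Markers of the lens itself were bright, with all 13 above the array median in control lenses. Of the 13 changes, 11 were negative (median -0.12), and 3 were lower at an unadjusted p under 0.05, against 10.2% of all genes. The alpha and beta crystallins Cryaa and Crybb1 had changes of -0.06 and -0.07, while Crygs, a gamma crystallin, fell by 3.36 and was the 1 lens marker that passed the test. Cryaa and Crybb1 lay at percentiles 99.995 and 99.985 in control lenses, and how far such signals understate a change was not tested. Of 10 endothelial and 10 neural retina markers, 0 passed the test and 10 of 10 changes were positive in each list. Of 9 periocular mesenchyme markers, 8 had a positive change (median 0.34) and 0 of these passed, while Pdgfra fell by 0.58. In control lenses Pdgfra stood at percentile 98.3 of all genes, against at most 80.8 for the other markers of that list. Which cells its signal came from was not tested, and it is part of the mesenchyme score. Pigment epithelium markers had a median change of 0.96 (6 of 7 positive), granulocyte markers of 0.73 (5 of 8 positive) and erythroid markers of 0.22 (5 of 5 positive), and striated muscle markers had one of -0.60 (0 of 9 positive). In these last 4 lists 0 markers passed the test, and their part in the members' values was not tested.

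**Figure D3:**
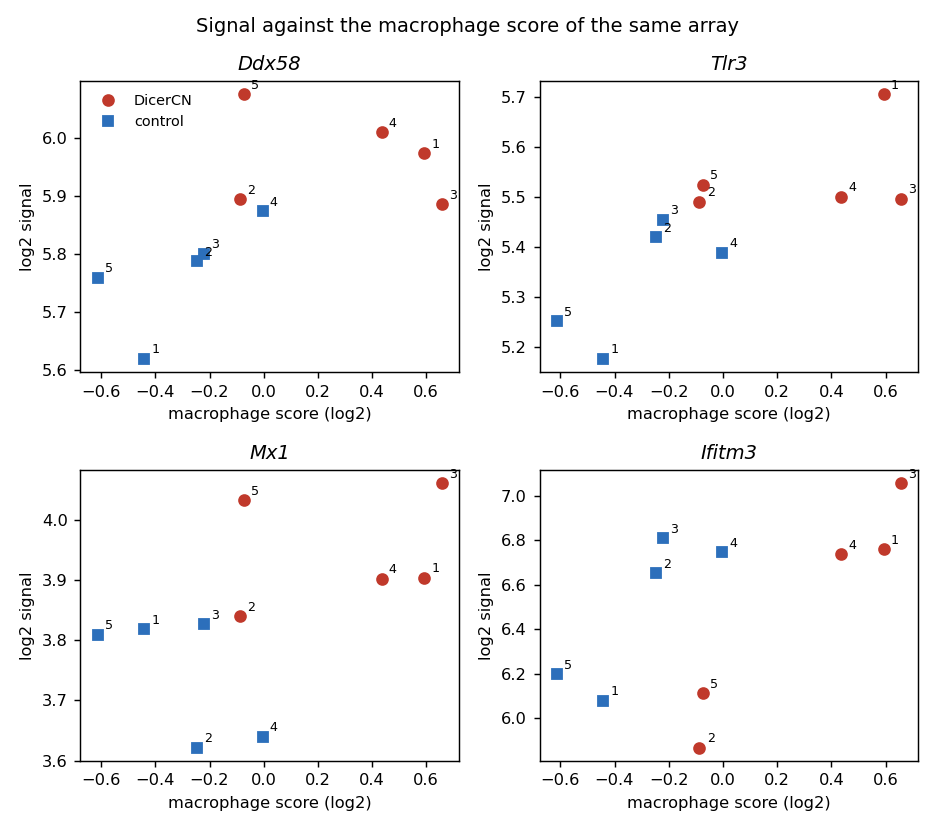
Log2 signal of Ddx58, Tlr3, Mx1 and Ifitm3 (y axes) against the macrophage score of the same array (x axes), with the replicate number beside each point. DicerCN arrays are above control arrays in the first 3 panels, and in the Ifitm3 panel the 3 arrays of each group with the highest score are the 3 with the highest signal.

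The rest of the pathway was read from lists drawn up from general knowledge of it. Of 16 measured interferons and receptor subunits, 1 rose and 1 fell, where 2.56% of all genes were higher and 3.97% lower, so that the count is near the background. Il10rb, the receptor subunit shared by interleukin 10 and the lambda interferons, rose by 0.77 (SE 0.17, limma adjusted p = 0.0162; 7.21 ± 0.26 in DicerCN and 6.44 ± 0.36 in control lenses), and in the fit that also held the macrophage score its change was 0.32 (adjusted p = 0.516). Ifnz, interferon zeta, fell by 0.33 (SE 0.09, adjusted p = 0.0406), a call that was lost in 9 of the 10 fits with 1 array left out, and its family of near-identical genes can share probes. Ifnb1, the first interferon made after sensing, is named after its values were seen and had a change of 0.002 (SE 0.09). The receptor subunit Ifnar1 (0.20, SE 0.09) and the lambda interferon Ifnl2 (-0.21, SE 0.09) did not pass.

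Among 26 measured genes of the route between sensor and nucleus, 1 rose and 0 fell (3.85% higher, near the 2.56% of all genes). At an unadjusted p under 0.05 in limma, 8 were higher (30.8%) and 1 lower (3.85%), against 8.36% and 10.2% of all genes. Averaged after centring each gene on its mean of 10 arrays, this list ran from -0.005 to 0.12 in DicerCN arrays. In control arrays the average ran from -0.08 to -0.02, and the cause of this shift was not tested. Traf6, a ubiquitin ligase of Toll-like receptor signalling, rose by 0.32 (SE 0.07, limma adjusted p = 0.0178). It had 8.75, 8.66, 8.91, 8.68 and 8.64 in DicerCN lenses, against 8.38, 8.42, 8.43, 8.44 and 8.34 in control lenses, with no overlap. Its call was lost in the fit that held the macrophage score (0.19, adjusted p = 0.440) and without control replicate 1 (0.32, adjusted p = 0.0534). Socs3, a feedback inhibitor of cytokine receptors, stood at 0.41 (SE 0.11, adjusted p = 0.0529), Ptpn6, a phosphatase of blood cells, at 0.27 (SE 0.09), and Trim25, the ubiquitin ligase of RIG-I, at 0.34 (SE 0.11).

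Of 41 other interferon-induced genes, 3 rose and 0 fell (7.32% higher, against 2.56% of all genes), and their median change was 0.05. Ifi35, a cytosolic interferon-induced protein, rose by 0.47 (SE 0.12, limma adjusted p = 0.0412) and had 6.35, 6.81, 6.996, 6.51 and 6.44 in DicerCN lenses, against 6.20, 6.35, 6.16, 5.95 and 6.09 in control lenses. Parp14, an ADP-ribosyltransferase, rose by 0.30 (SE 0.07, adjusted p = 0.0242) and had 5.51, 5.55, 5.70, 5.61 and 5.67 in DicerCN lenses, against 5.37, 5.34, 5.30, 5.34 and 5.18 in control lenses. Herc6, the ligase that attaches ISG15 in mice, rose by 0.36 (SE 0.10, adjusted p = 0.0442), with DicerCN replicate 2 inside the control range. Gbp7, a GTPase of cell-autonomous defence, stood at 0.50 (SE 0.16, adjusted p = 0.0902). The 3 calls were near the threshold: with 1 array left out, 0 to 3 genes of the list passed, and 0 passed without DicerCN replicate 3, without DicerCN replicate 4 or without control replicate 5. With the macrophage score as a covariate, Ifi35, Parp14 and Herc6 had changes of 0.47, 0.26 and 0.20. None of them passed (limma adjusted p = 0.312, 0.315 and 0.567), in a fit where 54 genes were higher and 156 lower in all.

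**Figure D4:**
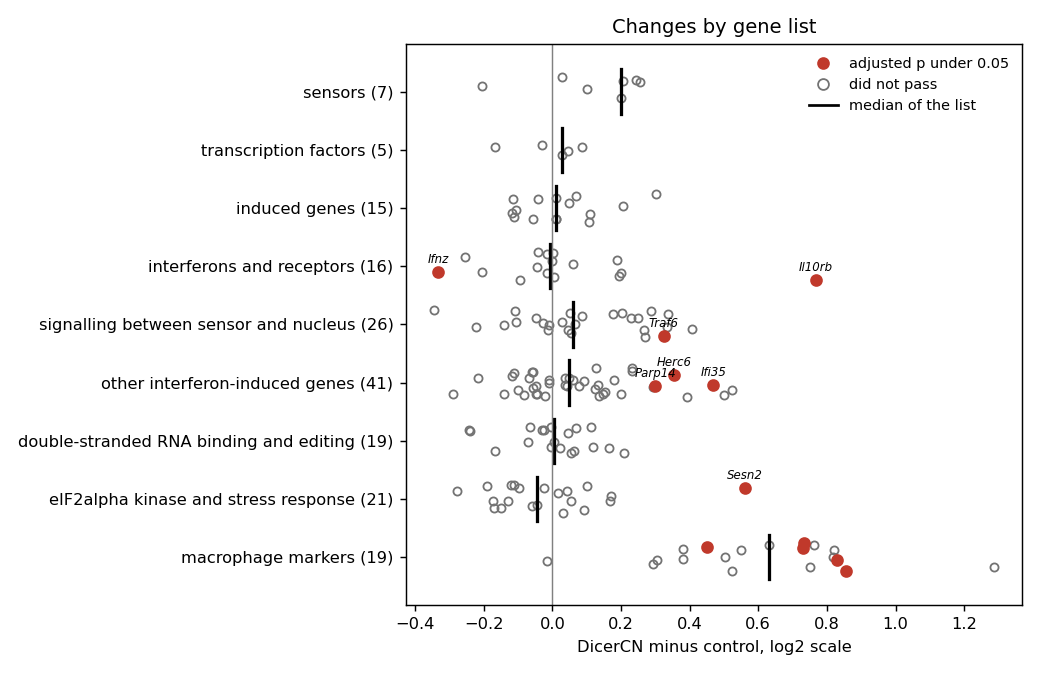
Change of each measured gene (x axis, DicerCN minus control, log2 scale) by list, with the number of genes in parentheses, a bar at the list median and filled points for genes that passed the test. The median is 0.20 for the sensors, 0.05 for the other interferon-induced genes and 0.63 for the macrophage markers.

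Proteins that bind or edit duplex RNA without being part of the antiviral list had no call, a count near the background. Of 19 measured genes, 0 rose and 0 fell, against 2.56% and 3.97% of all genes. At an unadjusted p under 0.05, 1 was higher and 1 lower, against 8.36% and 10.2% of all genes. Tarbp2, the partner of Dicer that also binds PKR, stood at -0.24 (SE 0.07, limma adjusted p = 0.0782; 8.21 ± 0.08 in DicerCN and 8.45 ± 0.09 in control lenses), and Adarb1, the second editing enzyme, at 0.21 (SE 0.07, adjusted p = 0.112). In both the groups did not overlap, which held for 7.38% of all genes, both directions counted. Stau2 and Zbtb8os had changes of 0.17 (SE 0.10) and -0.24 (SE 0.17). With the mean of probe sets in place of the brightest, 1 gene of this list passed.

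Among the other eIF2 alpha kinases, the subunits of eIF2B and the stress genes linked to them, 1 of 21 measured genes rose and 0 fell. This count is near the background of 2.56% higher and 3.97% lower. Sesn2, a sestrin induced by several stresses and by p53, rose by 0.56 (SE 0.12, limma adjusted p = 0.0137). It had 7.16, 7.48, 7.71, 7.61 and 7.14 in DicerCN lenses, against 6.70, 6.88, 7.02, 6.79 and 6.91 in control lenses, without overlap. It missed the threshold with the macrophage score in the fit (0.45, limma adjusted p = 0.283). Atf4 and Ddit3, the transcription factors through which this pathway acts, are named after their values were seen and stood at -0.06 (SE 0.09) and -0.02 (SE 0.08). Eif2b5 (-0.17, SE 0.07), Eif2ak3 (0.17, SE 0.09) and Nupr1 (-0.28, SE 0.17) did not pass.

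Dicer1 had a mean of 10.30 ± 0.11 in DicerCN and 10.17 ± 0.13 in control lenses, a change of 0.13 (SE 0.08, limma adjusted p = 0.472). Which exons lie between the loxP sites is not stated in the labels, so the probe set is no check of the genotype.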

How the data were processed

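Per the labels' protocols, total RNA (100 ng) of the lens pair of each embryo was made into biotinylated sense cDNA and hybridised to Affymetrix whole-transcript arrays, and the submitters' processing notes name GCOS. The deposited values are read as log2 signals from their range (1.91 to 15.2), and how they were normalized and summarised was not given in the sources used here. Array medians of 6.54 to 6.56 show arrays scaled to one another. Of 35557 probe sets, 21789 had 1 gene symbol in the platform annotation, 1621 several and 12147 none. Symbols were updated through gene IDs to RefSeq GRCm38.p6 (21698 matched).

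DicerCN and control arrays (5 each) were compared with limma 3.58.1 in R 4.3.3 (lmFit and eBayes, 2-sided), with Benjamini-Hochberg adjustment over 19938 genes and a threshold of 0.05, and the script was tested on simulated data. Intervals are 95% and unadjusted, and precision is limited by how many arrays there are. The labels describe separate embryos. Members, lists and alternatives were chosen with earlier results of these data known. Named are all members, up to 4 genes of each pathway list by smallest p and those that passed, the macrophage markers that passed, 2 bright lens markers, Crygs, Pdgfra and genes marked as chosen later. All other markers are given as counts and medians.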

Additional observations from a re-analysis of the deposited data

Results flagged for a closer look

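Of 54 groups of 5 arrays examined (27 members in DicerCN and in control lenses), 1 held an array far from the other 4: Tlr3 in DicerCN lenses, where replicate 1 had a log2 signal of 5.71 and the nearest array 5.53. Chance gives about 1 such group in 20. Without that array the change of Tlr3 was 0.17, against 0.21 with it.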

How the results depend on the processing

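No member was higher in DicerCN lenses in any of the 11 alternatives or the 10 fits without 1 array, and 1 was lower only with the macrophage score as a covariate, where 54 genes were higher and 156 lower in all, 0 interferons and receptors, 1 other induced gene and 0 stress genes passed, and Dhx58 (-0.16), Irf1 (0.18), Irf7 (-0.12), Usp18 (0.0030), Mx2 (0.022), Oas3 (0.045), Oasl2 (-0.20) and Ifitm3 (-0.78) turned sign. With the retina score 515 genes were lower, the interferon, signalling and other induced lists had 1, 3 and 0 calls, and Ifit1 (-0.014), Oas1a (-0.065) and Bst2 (0.0038) turned. With the mesenchyme score the interferon and other induced lists had 1 and 0 calls, and Dhx58 (-0.021), Irf1 (0.012), Irf7 (-0.040), Ifit1 (-0.012), Oasl2 (-0.014) and Ifitm3 (-0.15) turned. Without control 4 and DicerCN 5, the arrays with the highest muscle and retina scores, the signalling and other induced lists had 3 and 0 calls, and Stat2 (-0.073), Ifit3 (0.011), Oas1a (-0.034) and Bst2 (0.0069) turned. The mean of probe sets gave 2 signalling and 1 duplex-binding call and Irf1 at 0.038. Leaving out the 25% of genes with the lowest mean signal, which drops 6 members, and array weights each gave 2 signalling calls, and keeping probe sets with several symbols gave 1 call among interferons. The causes were not tested.

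Without 1 array, 303 to 503 genes were higher and 481 to 840 lower, the interferon, signalling and other induced lists had 1 to 2, 0 to 3 and 0 to 3 calls, 7 to 8 members lay above the array median, and the median change was 0.012 to 0.067. The sign turned within these ranges: Dhx58 -0.045 to 0.084, Irf1 -0.11 to 0.019, Irf7 -0.086 to 0.11, Stat2 -0.033 to 0.10, Ifit1 -0.023 to 0.055, Oas1a -0.044 to 0.053, Oasl2 -0.015 to 0.11 and Ifitm3 -0.13 to 0.17.

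Same-numbered arrays of the groups had correlations of -0.09 to 0.19 in their deviations, within the -0.37 to 0.33 of differently numbered arrays. No pairing by number was seen, but with 5 arrays in each group this check cannot exclude a shared origin behind the numbers. With the replicate number as a block, 471 genes were higher and 629 lower, 0 members were called, and the interferon list had 1 call. Of the DicerCN arrays, only replicate 4 correlated best with its own number.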
